A study of Mus musculus with 2 samples.

Results

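The 8 genes described here encode parts of receptor systems with which vessels sense adrenomedullin, acetylcholine and sphingosine-1-phosphate. They were chosen by name among the 31053 genes counted, with earlier results of these data known. They comprise the peptide Adm, its receptor Calcrl with the accessory proteins Ramp2 and Ramp3, the muscarinic receptor Chrm2, and the sphingosine-1-phosphate receptor S1pr1 with the exporter Spns2 and the kinase Sphk1. All 8 had counts in both libraries. Coordinates below are those of the GENCODE M21 annotation. Genes on the opposite strand overlap Adm, Ramp3, Chrm2, Spns2 and Sphk1, and whether reads were counted by strand is not given in the sources used here.

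To follow the lung endothelium during the first hours of metastatic colonization, lung cells were sorted for PECAM1, a surface protein of endothelial cells, and sequenced cell by cell. Mice were WT C57BL/6 animals, male and 8 to 10 weeks old per the methods of the study. The control mice received PBS and the metastatic mice 200000 B16-F10 cells, a mouse melanoma line, in both cases through the tail vein 6 h before the lungs were taken. Cells of 2 mice were pooled in each library and each group held 1 library. Tail vein injection delivers many tumor cells to the lung at once, and the sort had no step against leukocytes. Whether a difference between the libraries lies between the treatments, the mice or the preparations cannot be told apart, and no test between groups was possible.

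Adrenomedullin is a peptide that widens vessels and tightens the endothelial barrier. It binds CALCRL only when RAMP2 or RAMP3 accompanies the receptor, while RAMP1 turns CALCRL into a receptor for the peptide CGRP. Sphingosine-1-phosphate is a lipid made by sphingosine kinases, carried out of endothelial cells by SPNS2 and sensed by S1PR1, whose signal keeps junctions between endothelial cells closed and guides lymphocytes out of tissues. CHRM2 is an acetylcholine receptor that dampens cyclic AMP signaling and is known best from the heart and from airway nerves and muscle.

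The libraries held 67929614 control and 64733724 metastatic unique molecular identifiers (UMIs, 1 per captured RNA molecule). Barcodes with 1000 to 5000 genes and under 20% mitochondrial UMIs were taken as cells, which gave 7134 in the control library (median depth 6272.5 UMIs) and 6466 in the metastatic library (6526.5 UMIs). The libraries shared 16 of these barcodes. A cell was placed in a class when it carried 2 or more of that class's markers. General capillary cells, the stem-like cells of the alveolar wall, numbered 5020 in the control and 4519 in the metastatic library. Aerocytes, the capillary cells specialised for gas exchange, numbered 1364 and 1086, vein cells 247 and 304, and artery cells 63 and 59. Markers that the class rule did not use bore out the aerocyte and vein names, since Car4, Apln and Kdr were highest in aerocytes and Nr2f2 and Prss23 in veins. In artery cells Cxcl12 and Efnb2 were highest, but Hey1 was close to its level in general capillary cells and Sox17 was below it, and artery values rest on few cells.

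RNA of other cells moved with the libraries. Among general capillary cells the summed erythroid markers stood at 1959 UMIs per 1000000 UMIs of the class (CPM) in control and at 824 CPM in metastatic cells, and the platelet markers 176 and 272 CPM. In vein cells the summed myeloid markers were 32.2 and 615 CPM and the epithelial markers 130 and 3498 CPM. The part of these RNAs in the differences below was not tested, and the ratios of the 8 genes between libraries were computed again without cells that carried leukocyte, mesenchymal or platelet markers, which leaves the erythroid and epithelial RNA in place.

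Levels are given as CPM of the UMIs summed over the cells of a class, followed by their exact Poisson 95% interval. A log2 ratio sets the metastatic level over the control level, and its 95% interval is an exact binomial one given both counts. Such intervals hold counting error alone and leave out how mice and cells vary. A gene was said to be past the fold when it differed at least 1.5-fold between libraries on at least 50 UMIs. Of the 8 genes in general capillary cells, 1 was past the fold upward, Sphk1, against 4.46% of all 12165 genes with as many UMIs, and 1 downward, Chrm2, against 2.55%. The median log2 ratio of the 8 was -0.04 and that of all these genes 0.02.

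Chrm2 was past the fold downward in 3 of the 4 classes. The gene lies on chromosome 6 (36388084 to 36528414, plus strand, GRCm38, the assembly also called mm10) and spans a microRNA gene, Mir490, on the same strand. In general capillary cells its level was 117 CPM (113 to 120) in control cells and 62.1 CPM (59.3 to 65.0) in metastatic ones, which gave a log2 ratio of -0.91 (-0.99 to -0.83). In aerocytes it was 42.6 CPM (38.8 to 46.5) and 22.6 CPM (19.6 to 25.8), and the ratio was again -0.91. In vein cells it was 113 CPM (99.7 to 128) and 47.5 CPM (39.6 to 56.5), a ratio of -1.26 (-1.58 to -0.94), which became -0.69 with 3 markers asked and -0.41 with free RNA subtracted by its epithelial genes. The metastatic level was thus the lower one in these 3 classes with intervals that did not meet, and in artery cells 8 and 6 UMIs were too few to compare. Barcodes with 51 to 200 UMIs, which hold free RNA in place of a cell, held it at 47 CPM in the control library and at 26.7 CPM in the metastatic one. Without cells carrying leukocyte, mesenchymal or platelet markers the general capillary ratio was -0.92.

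The share of cells with a Chrm2 UMI moved the same way as its summed level. After each cell was thinned to 2000 UMIs, 18.6% (17.5 to 19.7) of control and 11% (10.1 to 11.9) of metastatic general capillary cells had one, and 43.5% and 26.6% had one before thinning. In vein cells the thinned shares were 19.9% (15.1 to 25.5) and 6.93% (4.34 to 10.4). Lymphoid cells, which should lack the receptor, had 0 of 43 and 0 of 42 cells with a UMI, for which a floor of 3 counts gives shares of up to 6.98% and 7.14% and the exact intervals reach 8.22% and 8.41%. Their median depths were 4704 and 5066.5 UMIs before thinning, against 5990 and 6314 in the general capillary cells thinned.

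**Figure D1:**
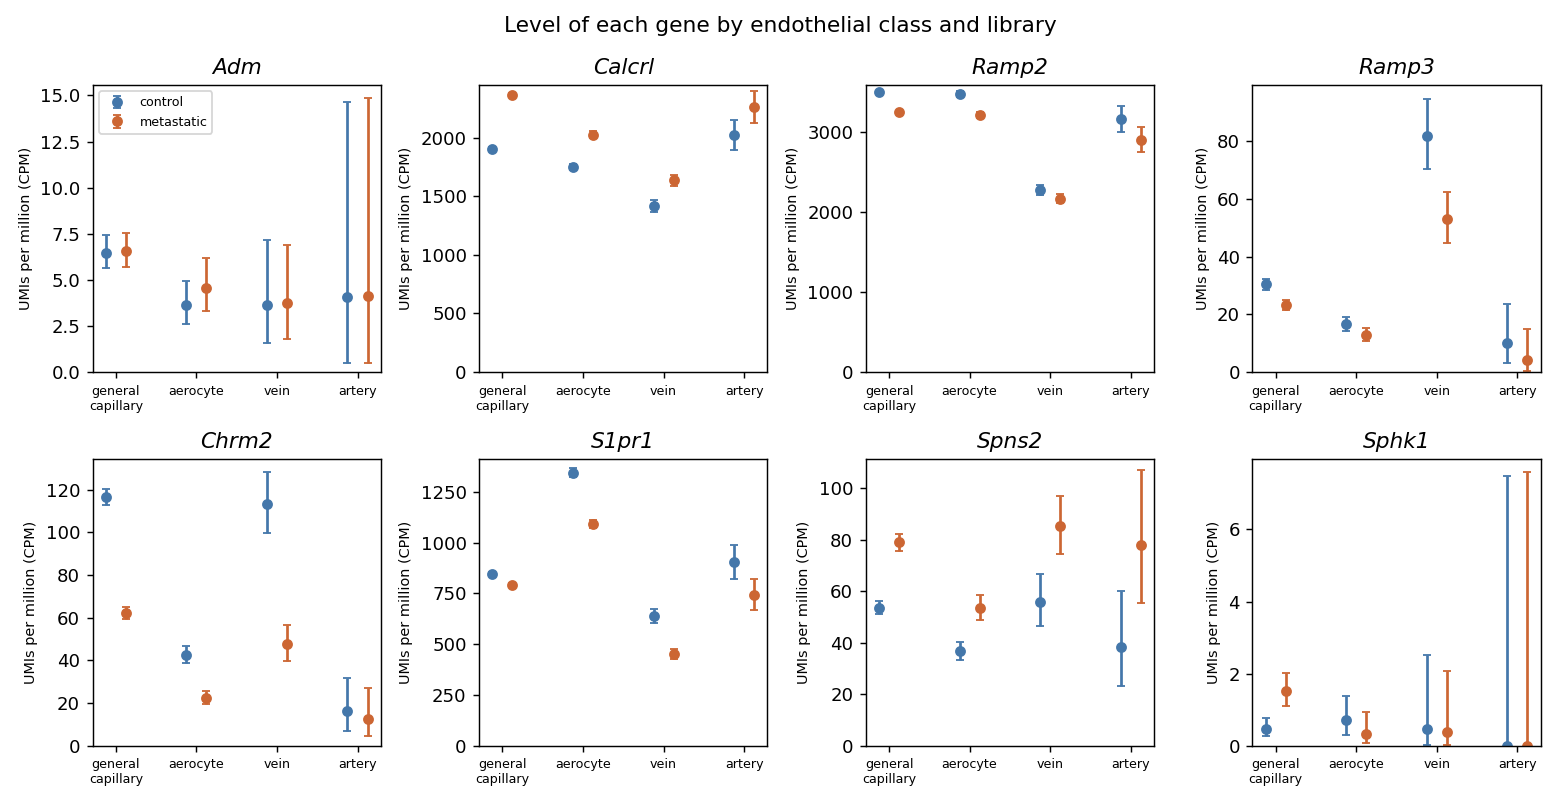
Level of each of the 8 genes in 4 endothelial classes of the control (blue) and metastatic (orange) library. The vertical axis is CPM, points are summed levels and bars exact Poisson 95% intervals. Chrm2 lies at 117 and 62.1 CPM in general capillary cells, and Ramp3 is highest in vein cells in both libraries.

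Chrm2 also differed between classes. Against general capillary cells it was lower by more than 2-fold in both libraries in aerocytes (log2 ratios -1.45 and -1.46), where 4.34% of all genes were so, and in artery cells (-2.85 and -2.33), where 4.75% were. No member was past 2-fold higher in aerocytes or in artery cells, where 3.73% and 2.88% of all genes were. Vein cells stood close to general capillary cells in the control library (-0.04, -0.23 to 0.14) and lower in the metastatic library (-0.39, -0.66 to -0.13). In the control library general capillary and vein cells were thus highest with overlapping intervals, aerocytes came next and artery cells last.

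The adrenomedullin receptor showed unlike ratios among its parts. Calcrl, the membrane receptor itself, on chromosome 2 (84330626 to 84425411, minus strand), measured 1901 CPM (1886 to 1916) in control and 2366 CPM (2349 to 2384) in metastatic general capillary cells, a log2 ratio of 0.32 (0.30 to 0.33). The ratio was 0.21 (0.18 to 0.24) in aerocytes, 0.21 (0.14 to 0.27) in vein (0.60 with free RNA subtracted) and 0.16 (0.04 to 0.29) in artery cells. Calcrl was higher in the metastatic library in all 4 classes, under the 1.5-fold limit in each. Leaving out cells with markers of any other cell type turned the artery ratio to -0.11, on 18 control and 30 metastatic cells. Free RNA barcodes held Calcrl at 1047 and 1246 CPM.

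Ramp2, the accessory protein that developing vessels need, lies on chromosome 11 (101246028 to 101259546, plus strand) and overlaps Vps25 on the same strand, so that reads in the shared part could belong to either gene. It measured 3502 CPM (3482 to 3523) in control and 3249 CPM (3228 to 3269) in metastatic general capillary cells, a log2 ratio of -0.11 (-0.12 to -0.10). The ratios were -0.12 in aerocytes, -0.07 in vein and -0.12 in artery cells. Ramp2 therefore moved the opposite way to Calcrl in each class, by little, and the sign of the vein value turned to 0.01 when 3 markers were asked of a cell.

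Ramp3, the accessory protein that returns the receptor to the surface after uptake, lies on chromosome 11 (6658521 to 6677475, plus strand). The general capillary level was 30.5 CPM (28.6 to 32.4) in control cells and 23.3 CPM (21.6 to 25.1) in metastatic ones, which gave a log2 ratio of -0.39 (-0.53 to -0.25). In vein cells it measured 82.0 CPM (70.5 to 94.9) and 53.1 CPM (44.7 to 62.6), a ratio of -0.63 (-0.96 to -0.30) that was past the fold. The metastatic level was the lower one in both classes, without overlap, and in aerocytes the ratio was -0.38 (-0.73 to -0.05). When free RNA was subtracted by its epithelial genes, which gave a free share of 77.4% in metastatic vein cells, the vein ratio turned to 0.43. A second estimate of the free share, from Gpihbp1 in lymphoid cells, was 3.07% in the control and 0.97% in the metastatic library, and with it the vein ratios were -0.65 for Ramp3, -1.27 for Chrm2, 0.20 for Calcrl and -0.50 for S1pr1. Members past the fold in vein cells numbered 2 downward, Ramp3 and Chrm2, against 2.69% of all genes, and 1 upward, Spns2, against 5.74%, of 6 with enough UMIs.

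Among the classes, Ramp3 was the member that marked veins. It was higher in vein than in general capillary cells by log2 1.43 (1.19 to 1.66) in the control and 1.19 (0.92 to 1.45) in the metastatic library, past 2-fold in both, where 3.2% of all genes were. It was the 1 member to be so among those with at least 50 UMIs over both classes in each library, which Sphk1 lacked. Of these members 0 were past 2-fold lower in veins, where 3.05% of all genes were. The order from vein to general capillary, aerocyte and artery cells held in both libraries, and artery cells were past 2-fold lower than general capillary cells in both (log2 -1.59 and -2.50), although on 5 and 2 UMIs with intervals that met those of aerocytes. Calcrl and Ramp2 were instead lowest in vein cells in both libraries, by log2 -0.43 and -0.62 against general capillary cells in the control library. In aerocytes Ramp2 did not differ from general capillary cells beyond counting error in the control library (-0.01, -0.02 to 0.01).

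Within general capillary cells the same gradient could be seen on cells that carried 1 artery or 1 vein marker. In the control library Ramp3 measured 10.7 CPM in the 381 cells with 1 artery marker, 31.6 CPM in the 4370 cells with neither and 40.8 CPM in the 243 cells with 1 vein marker. In the metastatic library these levels were 13, 24.0 and 25.5 CPM. The last pair overlapped in its intervals in both libraries, with log2 ratios of 0.37 (0.01 to 0.71) in the control and 0.08 (-0.38 to 0.52) in the metastatic library. Calcrl ran the other way, at 2174, 1906 and 1479 CPM in the control and 2617, 2369 and 2069 CPM in the metastatic library. S1pr1 had the order of Calcrl in both libraries, at 921, 856 and 606 CPM in the control and 848, 801 and 621 CPM in the metastatic library.

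Adm, the ligand, on chromosome 7 (110627661 to 110629820, plus strand), was scarce. It measured 6.48 CPM (5.63 to 7.42) in control and 6.57 CPM (5.69 to 7.55) in metastatic general capillary cells, and the interval of the ratio held 0 (0.02, -0.27 to 0.31). In the metastatic library 3 cells held 14.6% of these UMIs and the top cell alone held 17. Without the 3 top cells of each library the ratio was -0.12 (-0.43 to 0.18). Leaving out cells with markers of any other cell type gave 0.35. Adm did not differ between the libraries beyond counting error, and free RNA barcodes held it at 8.42 and 11.3 CPM, above its level in any endothelial class.

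Receptor and accessory RNA were found together in most cells. After thinning, a Calcrl UMI was found in 92.0% of control and 93.2% of metastatic general capillary cells and a Ramp2 UMI in 98.9% and 97.7%, so that 91.3% and 91.8% held both. The product of the single shares was 91.0% in each library. A Ramp3 UMI was found in 5.50% (4.88 to 6.17) and 4.21% (3.64 to 4.85), and of these cells 93.0% and 92.0% also held Calcrl, close to the share of all cells that did. In lymphoid cells, as a measure of free RNA, 9.30% and 11.9% held Calcrl and 27.9% and 11.9% held Ramp2.

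The sphingosine-1-phosphate genes moved in unlike directions. S1pr1, the receptor, lies on chromosome 3 (115710433 to 115715072, minus strand). The general capillary level was 844 CPM (834 to 854) in control cells and 791 CPM (781 to 801) in metastatic ones, which gave a log2 ratio of -0.09 (-0.12 to -0.07). In aerocytes it measured 1345 CPM (1323 to 1366) and 1092 CPM (1071 to 1114), a ratio of -0.30 (-0.34 to -0.26). In vein cells it measured 638 CPM (605 to 672) and 452 CPM (427 to 478), a ratio of -0.50 (-0.61 to -0.39) that became -1.27 with the same free RNA subtraction and -0.31 without cells carrying markers of other types, and the artery ratio was -0.28 (-0.49 to -0.08). S1pr1 was lower in the metastatic library in the 4 classes, least so in general capillary cells, and under 1.5-fold in each.

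S1pr1 had its highest level in aerocytes. Against general capillary cells it was higher by log2 0.67 (0.64 to 0.70) in the control and 0.47 (0.43 to 0.50) in the metastatic library, and lower in vein cells by -0.40 and -0.81. Artery and general capillary cells did not differ beyond counting error (0.10, -0.04 to 0.23 and -0.09, -0.25 to 0.06). Thinned shares of cells with a UMI in general capillary cells were 77.1% (75.9 to 78.3) and 74.0% (72.7 to 75.3). Lymphoid cells are no background for this gene, as lymphocytes use S1PR1, and they measured 376 and 317 CPM. Myeloid cells measured 18.4 and 1.88 CPM.

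**Figure D2:**
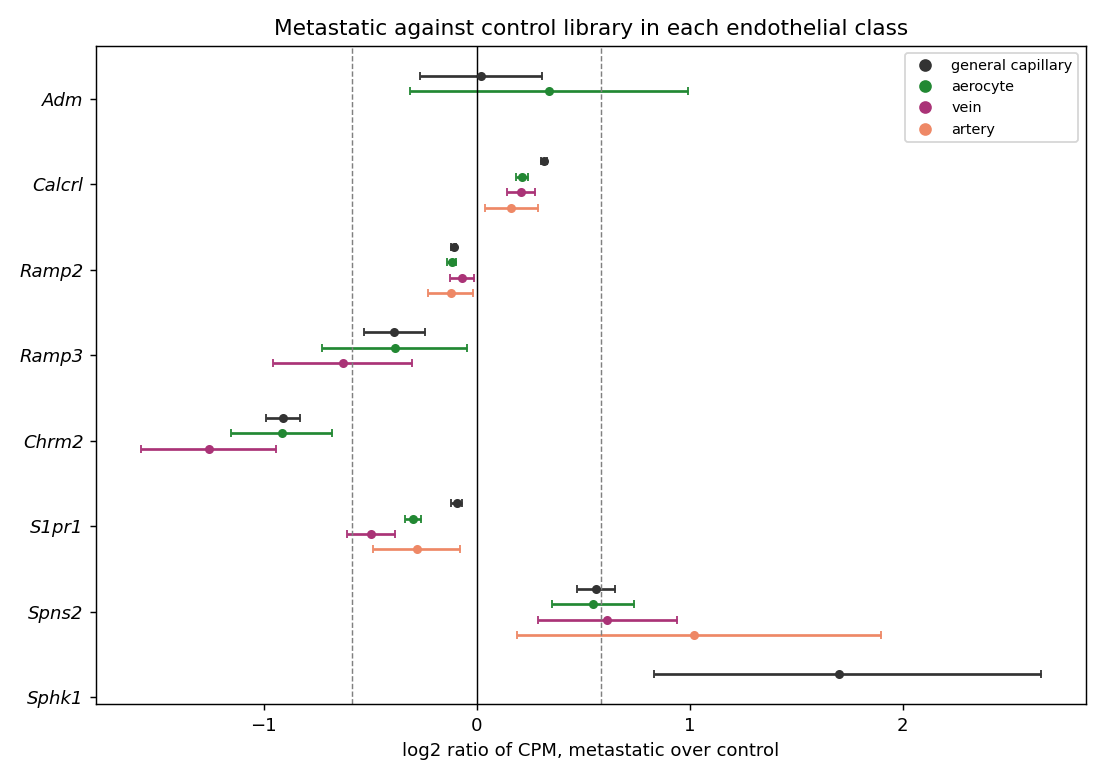
Log2 ratio of the metastatic to the control library for each gene in general capillary, aerocyte, vein and artery cells with at least 50 UMIs. Points are ratios of CPM, bars exact 95% counting intervals, and dashed lines mark 1.5-fold. Chrm2 lies at -0.91, -0.91 and -1.26 and Spns2 between 0.55 and 1.02.

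Spns2, the exporter of sphingosine-1-phosphate, lies on chromosome 11 (72451638 to 72489904, minus strand). The general capillary level was 53.5 CPM (51 to 56.1) in control cells and 78.9 CPM (75.8 to 82.1) in metastatic ones, which gave a log2 ratio of 0.56 (0.47 to 0.65), just inside the 1.5-fold limit of 0.58. In aerocytes it measured 36.6 CPM (33.2 to 40.3) and 53.5 CPM (48.9 to 58.4), a ratio of 0.55 (0.36 to 0.74). In vein cells it measured 55.8 CPM (46.3 to 66.5) and 85.2 CPM (74.5 to 97.0), a ratio of 0.61 (0.29 to 0.94) that became 1.03 without cells carrying markers of other types. Artery cells gave 19 and 38 UMIs and a ratio of 1.02 (0.19 to 1.90), the 1 of 4 counted members past the fold upward there, against 6.95% of all genes, while 0 were past it downward, against 5.43%. The metastatic library had the higher level in the 4 classes, and the intervals of the levels overlapped in artery cells alone. Free RNA barcodes held Spns2 at 51 and 73.6 CPM.

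Thinned shares of general capillary cells with a Spns2 UMI were 9.74% (8.93 to 10.6) and 14.3% (13.2 to 15.3), and 27% and 36.5% before thinning. In the other classes the thinned shares overlapped in their intervals, at 7.75% and 9.78% in aerocytes, 9.76% and 14.5% in vein and 7.94% and 15.3% in artery cells. Thinned to 1000 UMIs, the metastatic share was the lower one in aerocytes (3.67% and 2.76%) and vein cells (6.88% and 6.25%), again with overlap. Lymphoid cells had 0 of 43 and 2 of 42 cells with a UMI. Spns2 and S1pr1 UMIs were found together about as often as their single shares give. Both were found in 7.80% and 10.7% of general capillary cells, and the product of the single shares was 7.51% and 10.5%. In aerocytes Spns2 was lower than in general capillary cells by log2 -0.55 in the control and -0.56 in the metastatic library, so that receptor and exporter had opposite orders in these 2 classes.

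Sphk1, a kinase that makes sphingosine-1-phosphate, lies on chromosome 11 (116530925 to 116536674, plus strand) and had the fewest UMIs of the 8 genes. In general capillary cells 15 control and 46 metastatic UMIs gave 0.47 CPM (0.26 to 0.77) and 1.52 CPM (1.11 to 2.03), a log2 ratio of 1.7 (0.83 to 2.65). The UMIs lay in 13 and 28 cells. With each of these cells counted once the ratio was 1.19 (0.19 to 2.26). Without cells carrying leukocyte, mesenchymal or platelet markers fewer than 50 UMIs remained and Sphk1 was no longer counted as past the fold, with a ratio of 1.42. With 3 markers asked of a cell the ratio was 0.97, also on fewer than 50 UMIs. Free RNA barcodes held Sphk1 at 2.81 and 5.65 CPM, above its level in the class. In aerocytes 8 and 3 UMIs were found, in vein cells 1 and 1, and in artery cells 0 and 0.

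**Figure D3:**
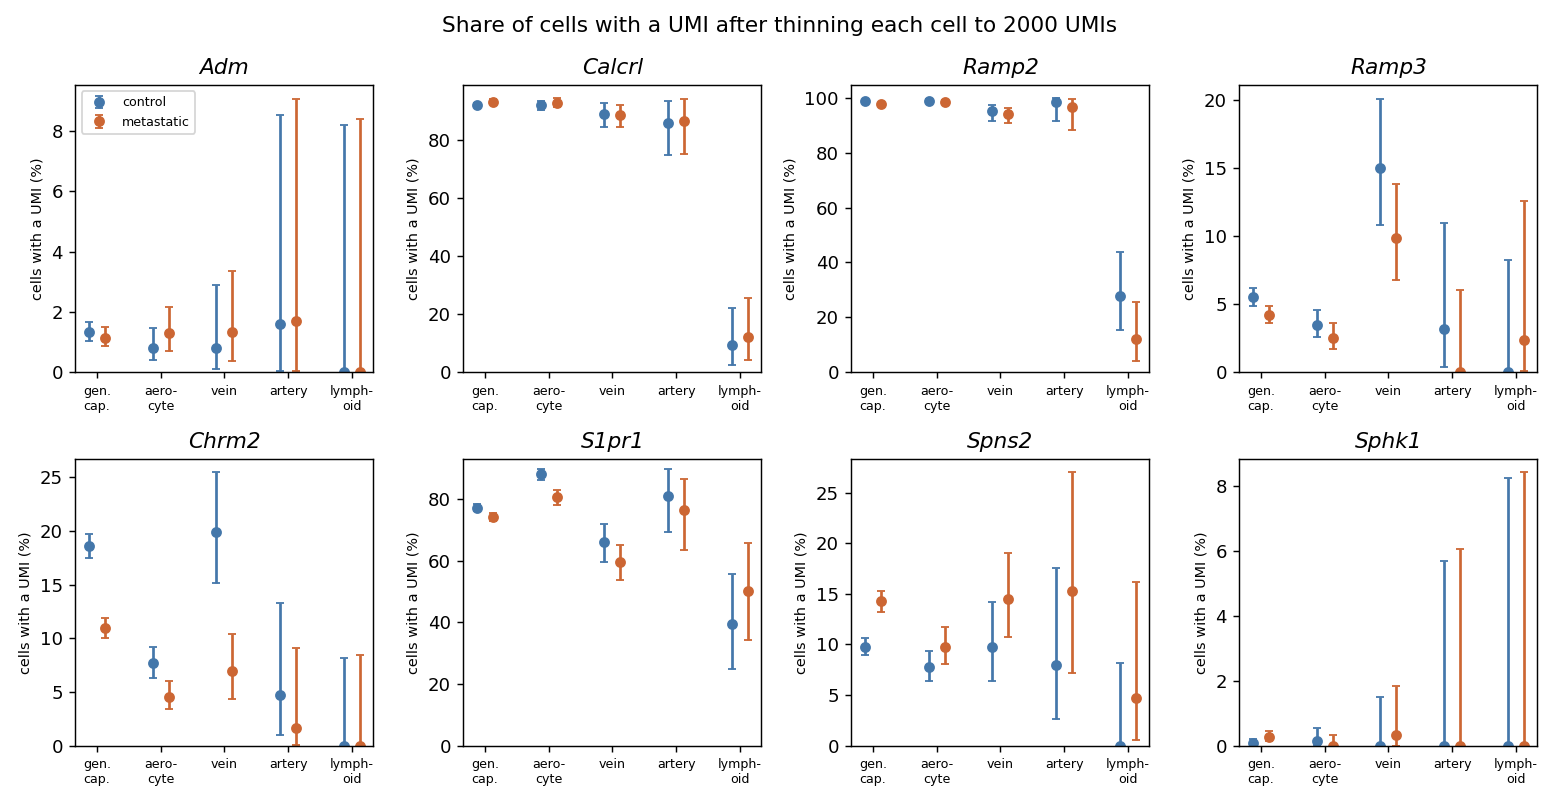
Share of cells with at least 1 UMI of each gene after thinning each cell to 2000 UMIs, for the 4 endothelial classes and lymphoid cells, in the control (blue) and metastatic (orange) library. Bars are exact Clopper-Pearson 95% intervals. Chrm2 stands at 18.6% and 11% and Spns2 at 9.74% and 14.3% in general capillary cells.

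Within the general capillary class the members were next compared between cells with and without a UMI of Inhbb, which encodes an activin subunit and marks the reactive capillary state that the study follows. Such cells numbered 116 of 5020 in the control and 338 of 4519 in the metastatic library, with median depths of 6767.5 and 7244 UMIs against 5935 and 6193 in the others. Inhbb itself defined the split and is no result. Of control cells, 12.9% with Inhbb and 7.99% without carried 1 artery marker, and 3.45% and 5.40% carried 1 vein marker. In the metastatic library these shares were 8.28% and 7.96% for artery and 3.25% and 5.84% for vein. The part of these marker shares in the differences below was not tested.

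S1pr1 was level across this split in the control and not in the metastatic library. Control cells with an Inhbb UMI measured 836 CPM and those without 844 CPM, a log2 ratio of -0.01 (-0.12 to 0.09). Metastatic cells with an Inhbb UMI measured 1174 CPM and those without 753 CPM, a ratio of 0.64 (0.59 to 0.69). Between libraries S1pr1 was thus higher in the metastatic cells with Inhbb (0.49, 0.37 to 0.61) and lower in the metastatic cells without (-0.17, -0.19 to -0.14). In the metastatic library the ratio of cells with to cells without Inhbb was 0.66 without marked doublets and 0.62 without cells carrying leukocyte, mesenchymal or platelet markers. The 152 metastatic cells with at least 2 Inhbb UMIs measured 1371 CPM, while the 28 such control cells measured 768 CPM.

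Sphk1 was found mostly in the same small group of metastatic cells. Of its 46 UMIs there, 31 lay in 14 of the 338 cells with Inhbb, at 11.2 CPM, and 15 in 14 of the 4181 cells without, at 0.55 CPM, a log2 ratio of 4.36 (3.43 to 5.36). Without cells carrying leukocyte, mesenchymal or platelet markers, 19 UMIs remained in 11 of 290 cells with Inhbb, at 8.28 CPM. The cells without Inhbb then held 12 UMIs, and the ratio was 4.02 (2.90 to 5.19). In the control library the 116 cells with Inhbb held 0 Sphk1 UMIs and the 4904 cells without held 15, at 0.48 CPM. So few UMIs are expected in 116 cells at that level, and the interval of the control ratio reached up to 3.29. Between libraries the cells without Inhbb did not differ beyond counting error (0.18, -0.95 to 1.32).

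The adrenomedullin receptor ran the opposite way across the split. Metastatic cells with Inhbb measured 1592 CPM of Calcrl against 2444 CPM in those without (-0.62, -0.66 to -0.57), and control cells 1547 and 1911 CPM (-0.31, -0.38 to -0.23). For Ramp2 the metastatic levels were 2572 and 3317 CPM (-0.37, -0.40 to -0.33), while the control levels of 3527 and 3502 CPM did not differ beyond counting error. Ramp3 was lower with Inhbb in both libraries, at 12.4 against 31.0 CPM in the control and 9.39 against 24.7 CPM in the metastatic library, on 11 and 26 UMIs. The higher Calcrl level of the metastatic library lay in the cells without Inhbb (0.35, 0.34 to 0.37), and in the cells with Inhbb the ratio between libraries held 0 (0.04, -0.05 to 0.13). The difference between these ratios was not tested.

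Chrm2 and Spns2 kept the direction of the whole class in the cells without Inhbb. Chrm2 was lower in the metastatic library both in cells with Inhbb (91.2 and 41.5 CPM) and in cells without (117 and 64.2 CPM), by log2 -1.14 (-1.56 to -0.71) and -0.87 (-0.95 to -0.79). Spns2 was higher in the metastatic cells without Inhbb, at 52.9 and 78.3 CPM, and with Inhbb it measured 75.5 and 85.2 CPM with a ratio that held 0. A split by 2 or more of the other reactive capillary markers was less selective, since 3191 control and 2936 metastatic cells passed it. With and without these markers, S1pr1 measured 841 and 853 CPM in the control and 821 and 717 CPM in the metastatic library. In the metastatic library Sphk1 had 41 and 5 UMIs, at 1.90 and 0.58 CPM (log2 1.72, 0.38 to 3.42). In the control it had 8 and 7 UMIs, with a ratio that held 0 (-1.02, -2.68 to 0.67). Chrm2 and Ramp3 did not keep the pattern of the Inhbb split. Chrm2 was higher with the markers, by log2 0.21 (0.11 to 0.32) in the control and 0.28 (0.13 to 0.44) in the metastatic library. The Ramp3 ratios of 0.10 and -0.04 held 0. Calcrl was lower with the markers, as it was with Inhbb, but by less (-0.10 and -0.08). Ramp2 was lower by -0.10 in the control and -0.15 in the metastatic library. Spns2 was higher with the markers, by 0.28 (0.12 to 0.43) in the control and 0.26 (0.13 to 0.40) in the metastatic library.

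**Figure D4:**
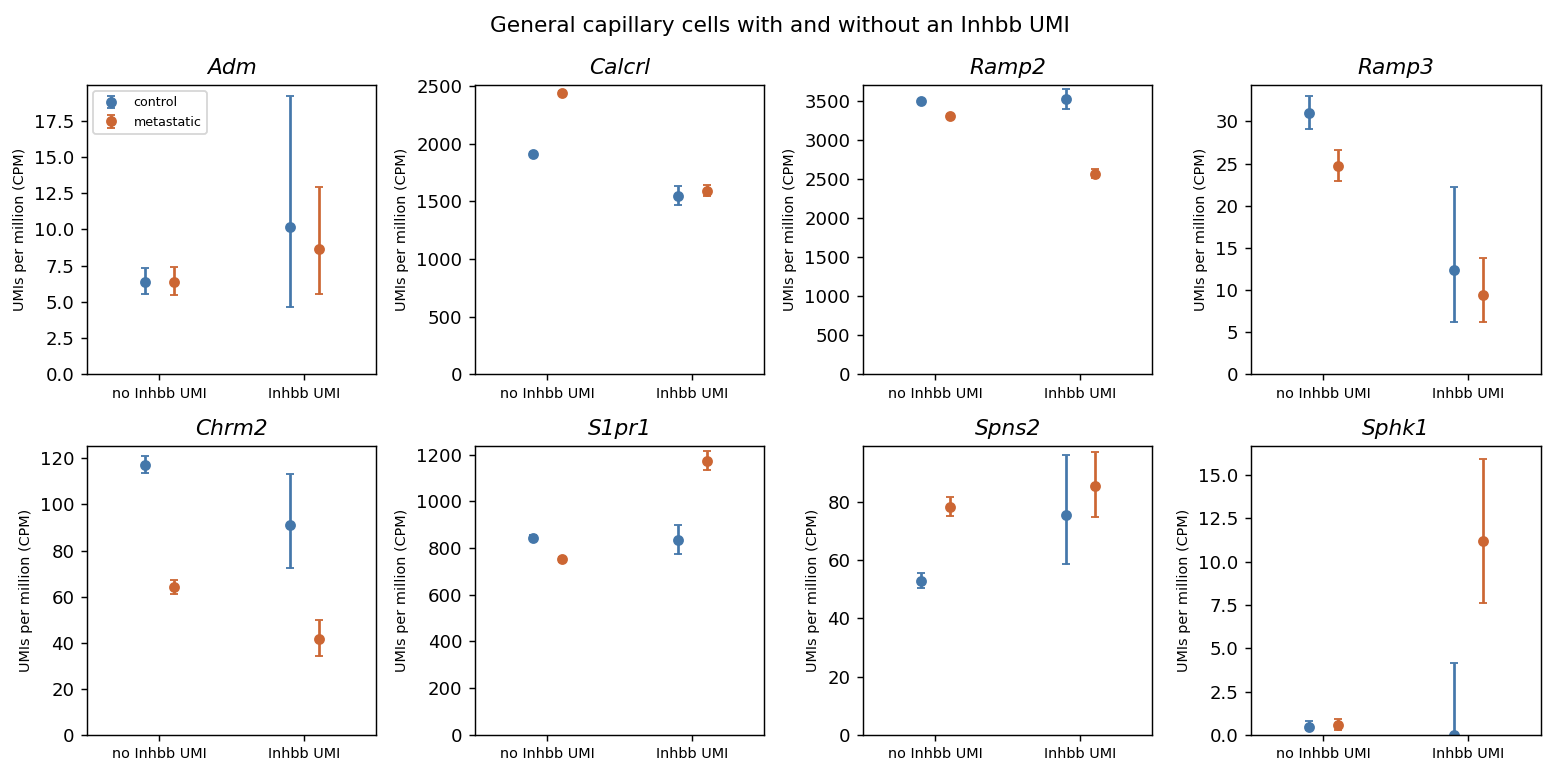
Level of each gene in general capillary cells without and with an Inhbb UMI, in CPM, for the control (blue) and metastatic (orange) library. Bars are exact Poisson 95% intervals. In the metastatic library S1pr1 lies at 753 CPM without and 1174 CPM with Inhbb, and Calcrl at 2444 and 1592 CPM.

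The other genes of the 3 pathways were taken from lists of known ligands, receptors and enzymes. Of 8 further adrenomedullin family genes, 4 had no UMI in general capillary cells (among them the peptide Adm2 and the calcitonin receptor Calcr) and 3 had at least 50 UMIs, of which 0 were past the fold. Ackr3, a chemokine scavenger that also binds adrenomedullin, measured 40.5 and 59.9 CPM (log2 0.56, 0.46 to 0.67), and Gpr182, an atypical receptor once assigned to the peptide, 133 and 178 CPM (0.42, 0.36 to 0.47). Ramp1 measured 3.86 and 3.70 CPM, against 177 and 386 CPM in myeloid cells. In vein cells Ackr3 and Gpr182 did not differ between libraries beyond counting error (0.01 and -0.01), while Ramp1 had 0 control UMIs and 45 metastatic UMIs in 10 cells (16.8 CPM), in the library whose vein cells held the higher myeloid RNA. The median log2 ratio of the 3 further genes was 0.42, and that of all genes tested 0.02.

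Chrm2 was the only well-counted gene of the cholinergic list in general capillary cells. Of the other 9 genes, 5 had no UMI there, among them Chrm4, Chrm5 and Chat, the enzyme that makes acetylcholine, and 0 reached 50 UMIs. Chrm3, the receptor through which acetylcholine relaxes vessels, had 12 and 16 UMIs in general capillary cells and 7 and 19 UMIs in vein cells, at 3.17 and 7.10 CPM in the latter. Bche, an enzyme that breaks acetylcholine down, had 9 and 14 UMIs in vein cells.

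Of 16 further sphingosine genes 13 had at least 50 UMIs in general capillary cells, of which 1 was past the fold upward and 0 downward, with a median log2 ratio of -0.10. S1pr2, a receptor that opposes S1pr1 on junctions, was the one past the fold, with 35 and 67 UMIs (1.02, 0.41 to 1.65). Sgpl1, the lyase that ends the lipid, was at 7.66 and 11.2 CPM (0.55). The lipid phosphatases went opposite ways, Plpp3 at 127 and 146 CPM (0.20) and Plpp1 at 973 and 707 CPM (-0.46). The ceramidases Acer2 (-0.27) and Asah1 (-0.14) were lower and Acer3 (0.14) was higher in the metastatic library, and Asah2 was lower by -0.23. S1pr4, a receptor best known from leukocytes, was lower (-0.24), and the intervals of S1pr3 (-0.35), Sphk2 (-0.09), Sgpp1 (-0.10) and Mfsd2b (0.03) held 0. In aerocytes S1pr3, at 14.5 and 9.48 CPM, was past the fold downward (-0.61), and Chrm2 was the 1 member of 7 that was, against 1.87% of all genes. No member was past the fold upward in aerocytes, where 3.99% of all genes were.

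**Figure D5:**
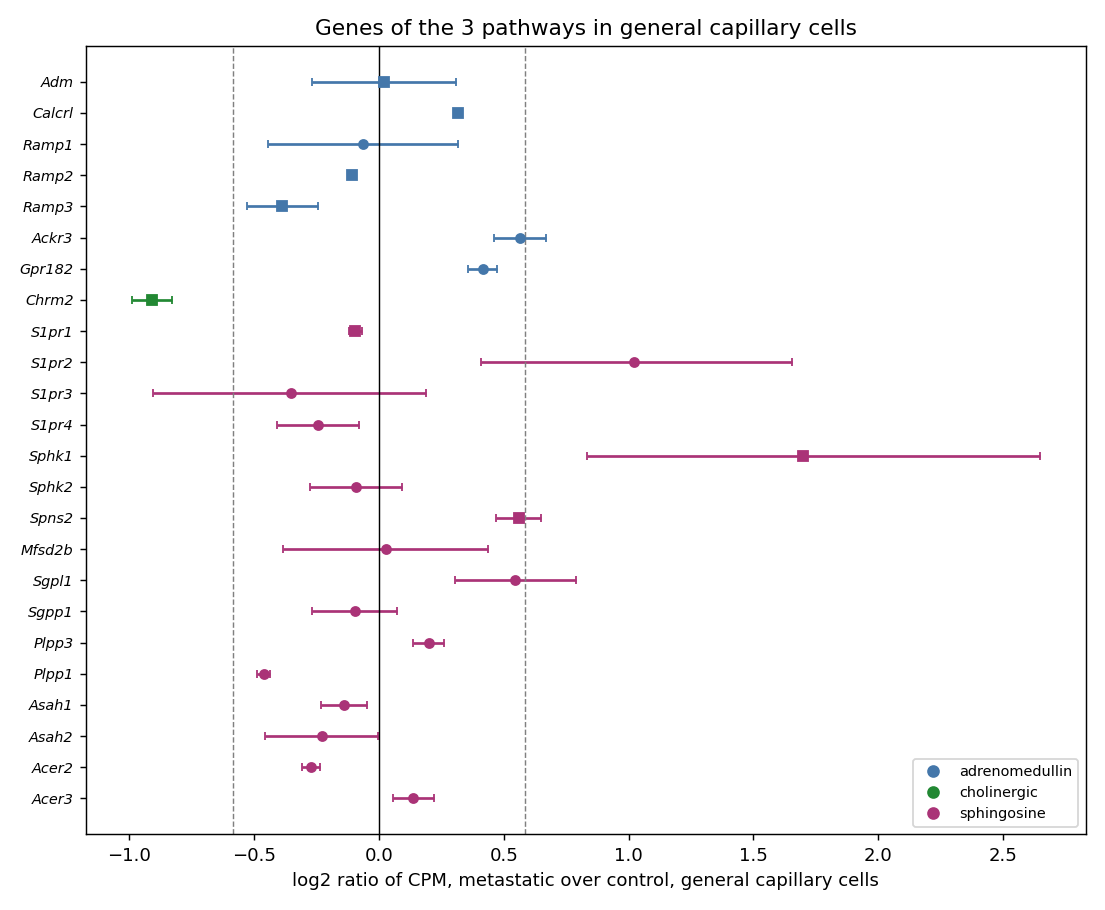
Log2 ratio of the metastatic to the control library in general capillary cells for the genes of the adrenomedullin, cholinergic and sphingosine lists with at least 50 UMIs. Squares are the 8 genes described, circles the other genes of the lists, bars exact 95% counting intervals and dashed lines 1.5-fold. S1pr2 (1.02) and Sphk1 (1.7) lie above the upper line and Chrm2 (-0.91) below the lower one.

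Patterns over the 4 classes in both libraries, 8 profiles in all, were compared with those of 9754 other genes, as a description of profiles that share libraries and depth. Chrm2 was most like Arl4d, Slc25a37 and Stt3b (Pearson r of log2(CPM + 1) 0.97 each). Ptgs1 (0.98) and Zfp36 (0.96) were among the genes most like Ramp3, and S1pr1 was most like Crk (0.99), 4931406P16Rik (0.97) and Cep85l (0.97). Ramp2 was most like Son (0.99), Bcl7a (0.98) and Rcsd1 (0.97), and Nt5c3b (0.96) and Ptms (0.95) were among the genes most like Spns2. Calcrl was most like Fubp1, Arl15 and Inhbb (0.96 each), although its level was lower in the single cells that held Inhbb. For the scarce Sphk1 (Gna12, Rnf122 and Hif1a, 0.91 to 0.88) and Adm (Gm47123, Pnn and Sh3glb1, 0.95 to 0.94) the likeness rests on few UMIs. Among the members themselves Ramp3 and Chrm2 (0.86) and Ramp2 and S1pr1 (0.85) were closest.

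RefSeq promoter windows of GRCm38.p6 matched 6 of the 8 genes, with no entry for Ramp2 and S1pr1. The 250 bases before the start site are shown for Chrm2 and Ramp3, the pair whose patterns were closest and whose levels were lower in the metastatic library, and for Spns2, whose level was higher. They lie at chr6:36387834-36388083 (plus strand), chr11:6658283-6658532 (plus strand) and chr11:72475028-72475277 (minus strand). The Spns2 window belongs to a start site inside the gene as annotated in GENCODE M21, whose own 5' end is at 72489904. Capitals mark the KLF letters CCACCC on either strand.
Chrm2: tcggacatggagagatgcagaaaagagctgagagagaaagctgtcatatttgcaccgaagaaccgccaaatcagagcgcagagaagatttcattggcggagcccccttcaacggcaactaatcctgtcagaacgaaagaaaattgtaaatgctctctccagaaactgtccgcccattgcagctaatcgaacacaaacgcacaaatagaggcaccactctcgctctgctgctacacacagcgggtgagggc
Ramp3: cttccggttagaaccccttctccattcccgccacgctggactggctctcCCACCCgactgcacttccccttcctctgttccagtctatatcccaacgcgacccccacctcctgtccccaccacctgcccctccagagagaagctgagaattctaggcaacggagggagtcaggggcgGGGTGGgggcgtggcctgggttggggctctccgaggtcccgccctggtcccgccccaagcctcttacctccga
Spns2: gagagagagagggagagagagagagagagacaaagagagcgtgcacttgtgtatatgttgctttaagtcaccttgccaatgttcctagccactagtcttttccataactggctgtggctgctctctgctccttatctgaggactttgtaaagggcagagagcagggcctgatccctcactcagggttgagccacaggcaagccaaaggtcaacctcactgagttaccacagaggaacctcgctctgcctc
Motifs were searched on both strands. That of KLF factors was spelled CCACCC, and a kappa-B site was searched under its name NF-kB. The AP-1 site of the stress response factors Fos and Jun was spelled TGANTCA. The E-box was spelled CACGTG, and the core of the hypoxia response, which lies within an E-box, was spelled ACGTG. For the glucocorticoid receptor the letters were AGAACA. Ramp3 held 2 matches to the KLF letters, which 28.1% of all 32851 promoter windows of that length hold. The windows of Chrm2, Spns2, Calcrl and Adm held none of these letters. Among the windows of the several Sphk1 start sites, the KLF, AP-1 (6.75% of all windows), E-box (6.02%) and hypoxia (16.6%) letters each occurred at least once, and the NF-kB (4.11%) and glucocorticoid (16.1%) letters did not. A match describes letters alone, and a window without one says nothing about the factor.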

How the data were processed

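Single lung cells sorted for PECAM1 were sequenced with a 10x 3′ kit, as 1 library of 2 pooled mice per group. The authors deposited raw UMI counts per gene and barcode on mm10 without cell calling, and the file header names Cell Ranger 3.1.0. Barcodes with 1000 to 5000 genes and under 20% mitochondrial UMIs were kept as cells, with marked doublets left in (407 control, 334 metastatic). Classes needed 2 markers. UMIs were summed per class and given as CPM with exact Poisson intervals (scipy 1.17.1), ratios with conditional binomial intervals and shares, after thinning to 2000 UMIs, with Clopper-Pearson intervals, all at 95%. The scripts were tested on simulated data. edgeR 4.0.16 (TMM) and DESeq2 1.42.0 (median of ratios) supplied alternative scalings only, since 1 library per group allows no test. The text names the 8 members, every list gene with at least 50 UMIs in general capillary cells, and the 3 genes of at least 400 UMIs most like each member, of which 2 are not reported here. Other genes named for scarce counts, and the check markers, were chosen outside that rule, the former after their values were seen. The members, lists and class rules were chosen with earlier results of these data known. The alternatives were other limits on genes and mitochondrial share, 3 markers, doublets, shared barcodes or cells with markers of other types left out, other scalings, free RNA subtraction, and the mean over cells. A second free RNA subtraction, the exclusion of cells with leukocyte, mesenchymal or platelet markers, and the repeats of the Inhbb split were added after the data were seen.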

Additional observations from a re-analysis of the deposited data

Results flagged for a closer look

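Several genes went opposite ways between libraries in different cells, with intervals on either side of 0, and these differences between cells were not tested. S1pr4 had a log2 ratio of 0.19 in aerocytes and -0.24 in general capillary cells. Acer3 had 0.14 in general capillary cells and -0.35 in vein cells. S1pr1 had 0.49 in general capillary cells with an Inhbb UMI and -0.17 in those without.

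Cells that no comparison used also held higher metastatic levels of some members and lower ones of others. In cells of no class Adm measured 12.5 CPM in the metastatic and 0.94 CPM in the control library, and 22 of its 31 metastatic UMIs lay in 1 cell. Sphk1 measured 9.29 and 2.36 CPM there, with 23 metastatic UMIs in 9 cells, and 10 of them in 1 cell. Calcrl measured 593 and 521 CPM and S1pr1 403 and 337 CPM in cells of no class. In cells that met the rule of several classes Calcrl measured 1807 and 1231 CPM, while S1pr1 was lower in the metastatic library, at 707 and 1057 CPM. Ramp2 was lower in the metastatic library in both groups. It measured 761 and 935 CPM in cells of no class and 2140 and 2619 CPM in cells of several classes.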

How the results depend on the processing

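Of 103 ratios recomputed in general capillary cells, 91 stayed within the counting interval, 12 moved out of it and 0 called values changed sign. Of 220 in the other classes, 190 stayed within, 27 moved and 3 called values changed sign. These were Calcrl in artery cells (-0.11, without cells carrying markers of other types), Ramp2 in vein cells (0.012, with 3 markers asked) and Ramp3 in vein cells (0.43, free RNA subtracted), and the cause was not tested. Adm, whose interval held 0, also ran below 0 under some alternatives, down to -0.10 in general capillary cells and -0.11 in aerocytes. In general capillary cells Adm became 0.35 and Calcrl 0.36 without cells carrying markers of other types, and Calcrl 0.34 without those carrying leukocyte, mesenchymal or platelet markers. The former exclusion was large and uneven. It left 1379 of 5020 control and 2166 of 4519 metastatic general capillary cells, and 84 of 247 and 150 of 304 vein cells. TMM scaling gave Calcrl 0.29 and Ramp2 -0.13, and median of ratios scaling Calcrl 0.28, Ramp2 -0.14 and S1pr1 -0.13. Subtracting free RNA by its epithelial genes gave Calcrl 0.26, Ramp2 -0.091, Chrm2 -1.0 and S1pr1 -0.13. Members past the fold upward in general capillary cells went from 1 to 0 with 3 markers asked and under both exclusions of cells with other markers, since Sphk1 then had fewer than 50 UMIs, with a ratio of 0.97 under 3 markers. With thinning to 1000 UMIs, 2 members had a higher and 2 a lower share of general capillary cells with a UMI. At 2000 UMIs these numbers were 1 and 4. A member was counted when its share intervals did not overlap between libraries. No such count over all genes is given here, so whether these numbers are unusual cannot be told. Sphk1 in general capillary cells and Ramp2 in vein cells gave no value under that subtraction. No paired analysis was possible because each group held 1 library, and no library could be left out. Depth limits Sphk1 and Adm in every class and most members in artery cells.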
